A study of Homo sapiens with 6 samples.

Results

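The genes described here encode the m6A readers of the YTH and IGF2BP families. The members are the 8 rows of the mRNA table named YTHDC1, YTHDC2, YTHDF1, YTHDF2, YTHDF3, IGF2BP1, IGF2BP2 and IGF2BP3, of 19912 rows in all. The rule that picks them uses gene names only. The data are 6 RNA-seq libraries labelled as gemcitabine-resistant cells of PANC-1, a line from a human pancreatic ductal carcinoma. The control group holds 3 libraries with the treatment label ctrl. The other group holds 3 libraries with the treatment label shSRSF3, a short hairpin RNA against the splicing factor SRSF3, and both groups carry the label of gemcitabine resistance. The labels give no hairpin sequence, clone, culture date or origin of the replicates, so each p-value rests on the spread among these libraries alone, and that spread may be technical.

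N6-methyladenosine (m6A) is a methyl mark placed on mRNA by a nuclear writer complex around METTL3 and METTL14, and it can be removed by the erasers FTO and ALKBH5. Reader proteins bind the marked RNA. The YTH domain holds the methylated base in an aromatic pocket. YTHDC1 works in the nucleus, where it is known to recruit SRSF3 to RNA in splicing and export, and YTHDC2 is a helicase best known from meiosis. YTHDF1, YTHDF2 and YTHDF3 are cytoplasmic paralogues, and YTHDF2 is known to bring the CCR4-NOT deadenylase complex to marked mRNA. IGF2BP1, IGF2BP2 and IGF2BP3 bind RNA through KH domains, are known to protect target mRNAs such as MYC from decay, and are called oncofetal because IGF2BP1 and IGF2BP3 are mostly silent in adult tissue.

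Values are the deposited FPKM, in which fragments are divided by the length of the gene and by the total of the library. The library totals, worked back from the FPKM steps, lay between 24558238 and 27351642 fragments, and the values of all 8 readers corresponded to whole fragments within 0.003 fragments. SRSF3 stood at 37.0, 39.6 and 39.2 FPKM in control libraries 1 to 3 and at 36.9, 37.1 and 38.6 FPKM in knockdown libraries 1 to 3. The groups overlapped, and no fall of the targeted gene was detected (log2 change -0.04, SE 0.05, limma adjusted p = 0.612; exact permutation p = 0.3). Every comparison below is therefore between libraries that carry the label knockdown and those that carry the label control. Of 7 epithelial and PANC-1 markers, KRT8, KRT18, KRT19, EPCAM and CDH1 were abundant (CDH1 at 82.3 ± 1.29 FPKM in controls, SD, n = 3). The other two were nearly absent: VIM, which PANC-1 cells are known to express, at 0.0101 ± 0.0045 and 0.0275 ± 0.012 FPKM in control and knockdown libraries, and KRT7 at 0.187 ± 0.056 and 0.146 ± 0.055 FPKM. The summed markers of other cell types stayed at or below 2.80 FPKM in every library, with 3 of 5 leukocyte, 0 of 4 endothelial, 1 of 5 fibroblast and 3 of 5 pancreatic acinar and endocrine markers at 0 throughout.

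Among the readers, the cytoplasmic YTHDF1 and YTHDF2 were the most abundant and IGF2BP1 the least. Over the 6 libraries the mean level was 38.9 FPKM for YTHDF1, 31.7 for YTHDF2, 21.6 for IGF2BP2, 13.0 for YTHDF3, 3.39 for IGF2BP3, 3.03 for YTHDC2, 1.22 for YTHDC1 and 0.0909 for IGF2BP1. FPKM are scaled per length, so these levels can be set side by side as far as each gene was counted alike. The annotation and assignment of shared reads were not given, and MATR3 and PRRC2A, known in most cells, were nearly absent. Each reader was higher than the next in 6 of 6 libraries, and only IGF2BP3 and YTHDC2 had ranges that overlapped. YTHDF1 stood above 89.9% and YTHDC1 above 11.0% of the 10823 mRNA genes with a mean of at least 0.5 FPKM, the genes that were tested. YTHDC1 and YTHDC2 were thus below every YTHDF gene in all 6 libraries. In bulk RNA such as this, fewer cells that express a gene and less of its RNA per cell cannot be told apart.

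**Figure D1:**
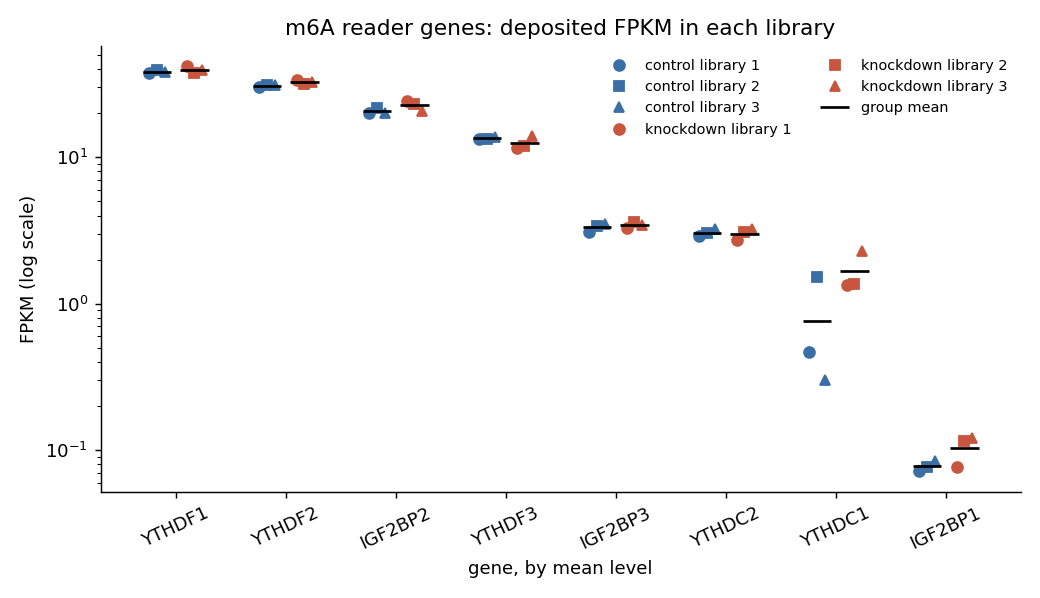
Deposited FPKM (log scale) of the 8 reader genes in the 3 control and 3 knockdown libraries, 1 point per library, with black bars at the group means. The points of most genes lie close together, while YTHDC1 runs from 0.302 to 2.30 FPKM.

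None of the readers passed the test between the groups. With limma on log2(FPKM + 1) and Benjamini-Hochberg adjustment over the table, 0 of the 7 tested readers had an adjusted p under 0.05, against 1819 of 10823 tested genes (16.8%). In knockdown libraries 10.9% of the tested genes were called higher and 5.91% lower. At an unadjusted p under 0.05 there was 1 reader, YTHDC1, against 33.0% of the tested genes. IGF2BP1 fell below the filter and was not tested. With limma voom on the recovered fragment numbers 1 reader passed, again YTHDC1, against 18.9% of 10799 genes. The control and knockdown values did not overlap in 1 of 8 readers, YTHDF2, against 37.9% of the tested genes. The median log2 change of the 7 tested readers was 0.047, and that of all tested genes 0.021.

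**Figure D2:**
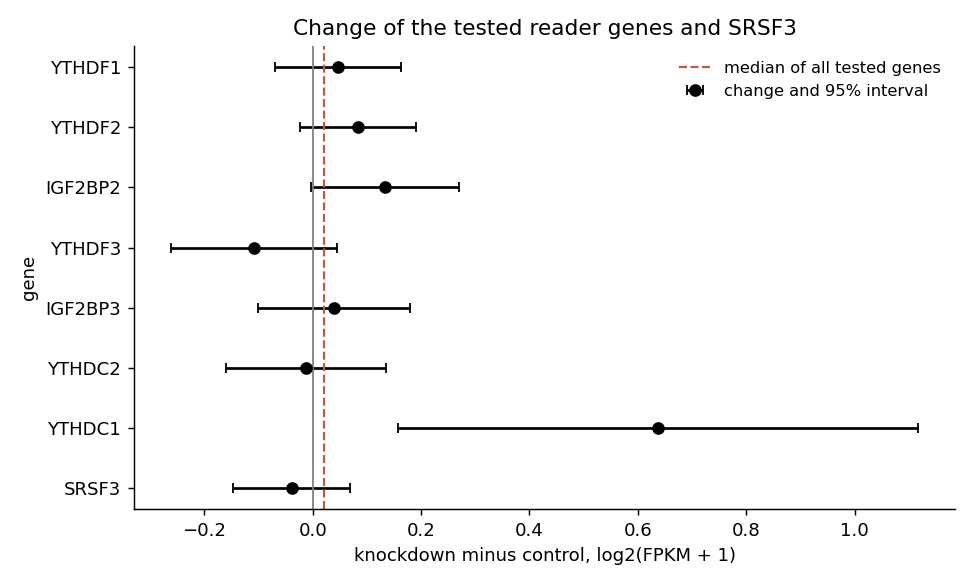
Change of the 7 tested readers and SRSF3 between knockdown and control libraries on the log2(FPKM + 1) scale, with 95% intervals from limma; the dashed line is the median of all tested genes. All intervals but that of YTHDC1 include 0, and the YTHDC1 interval is the widest.

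YTHDC1, the nuclear reader that recruits SRSF3, had the largest difference and the largest spread. Its level was 0.469, 1.53 and 0.302 FPKM in control libraries 1 to 3 and 1.34, 1.36 and 2.30 FPKM in knockdown libraries 1 to 3. The groups overlapped, because control library 2 lay above knockdown libraries 1 and 2. These values rest on 81, 275 and 58 fragments in the controls and on 241, 238 and 442 in the knockdown libraries. The mean was 0.767 ± 0.666 FPKM in controls and 1.67 ± 0.551 FPKM in knockdown libraries (SD, n = 3). The log2 change was 0.64 (SE 0.22, 95% interval from 0.16 to 1.12) with a limma adjusted p = 0.0687, and an exact two-sided permutation test had p = 0.3, with 0.1 as the lowest that 3 against 3 allows. The call turned on control library 2, without which the log2 change was 0.93 (limma adjusted p = 0.0055), and on the model, since voom on fragments gave a log2 change of 1.45 (adjusted p = 0.0221). Over all alternatives the adjusted p ran from 0.0055 to 0.237. With a pseudocount of 0.1 the log2 change was 1.25 (limma adjusted p = 0.0652), which shows how far the pseudocount of 1 compresses a gene at this level.

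The spread of YTHDC1 within a group was far above counting error. Its coefficient of variation (CV, SD over mean) was 86.9% over the controls and 33.1% over the knockdown libraries. Among 2342 tested genes within 2-fold of its level, the median CV over the controls was 8.58% and YTHDC1 ranked 9th from the top. Over all 10799 tested genes with whole fragments it ranked 12th. A chi-square of its fragments against the library totals was 213 over the controls, where the median of genes of like level was 2.85, and 67.4 over the knockdown libraries, where that median was 4.70. For the other tested readers the CV over the controls lay between 1.90% for YTHDF3 and 6.32% for IGF2BP3. The cause of the YTHDC1 spread was not tested.

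**Figure D3:**
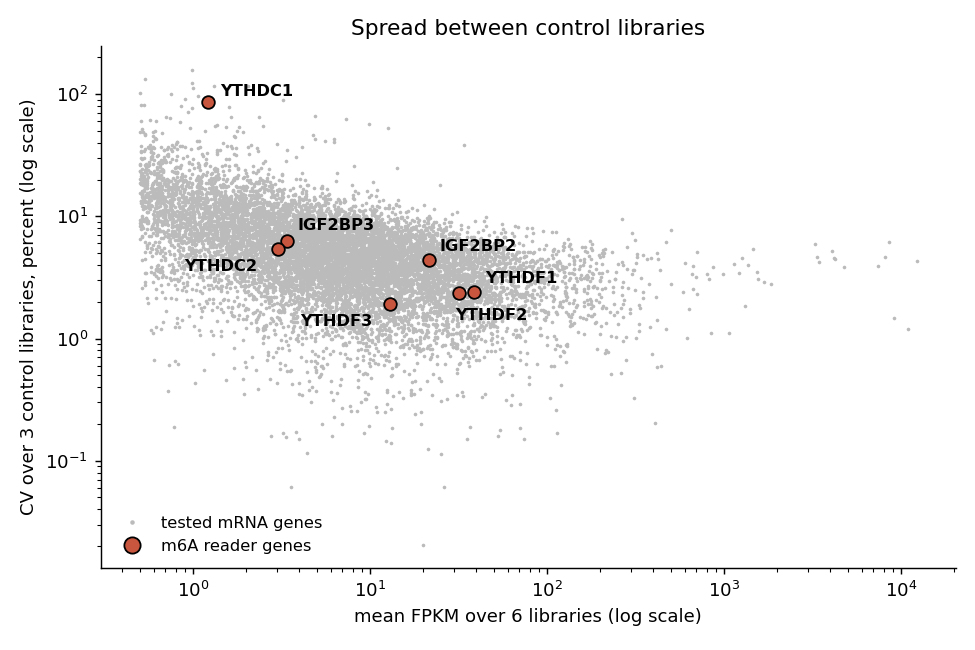
Mean FPKM over the 6 libraries and CV over the 3 control libraries (both log scales) for the 10799 tested mRNA genes with whole fragments (grey) and the 7 tested readers (red). YTHDC1, at 86.9%, lies above nearly all genes of its level, and the other readers lie within the cloud.

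YTHDC1 was also the reader with the smallest p, and the genes most like it across the 6 libraries were taken from all 10822 other tested genes. These were SEMA4G, a semaphorin gene (Pearson r = 0.987), TOE1, which encodes a nuclear 3′ exonuclease (r = 0.985), and KIAA0753, a centriolar gene (r = 0.982). They varied much less, with a CV over the controls of 17.4%, 7.18% and 3.04%. In all 41 genes had an r above 0.9. These values come from 6 libraries, and the genes of a library share its total, so the likeness is given as a description only.

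For YTHDC2, the helicase reader, no difference was detected. It stood at 2.89, 3.02 and 3.22 FPKM in the control group, and at 2.74, 3.07 and 3.21 FPKM in knockdown libraries. Both groups covered nearly the same range, with the lowest value in knockdown library 1. The log2 change was -0.013 (SE 0.07, limma adjusted p = 0.914), and the 95% interval runs from -0.16 to 0.13. The ratio of YTHDC2 to YTHDC1 was 6.16, 1.97 and 10.7 in the controls and 2.05, 2.26 and 1.40 in the knockdown libraries, so control library 2 sat with the knockdown libraries in this ratio (exact permutation p = 0.3).

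The cytoplasmic YTHDF1 and YTHDF2, of mRNA translation and decay, had small differences that did not pass the test, and after quantile normalization the log2 change was -0.033 for YTHDF1 and 0.0053 for YTHDF2 (limma adjusted p = 0.953 for YTHDF2). YTHDF1 stood at 37.4, 39.2 and 37.9 FPKM in the control group, and at 41.8, 37.6 and 39.1 FPKM in knockdown libraries. Knockdown library 1 was the highest, and knockdown libraries 2 and 3 lay within the range of the controls. The YTHDF1 log2 change was 0.05 (SE 0.05, 95% interval from -0.07 to 0.16, limma adjusted p = 0.566). YTHDF2 stood at 29.9, 31.3 and 31.0 FPKM in the control group, and at 33.9, 31.6 and 32.5 FPKM in knockdown libraries. All knockdown values lay above all control values, by a narrow margin between control library 2 and knockdown library 2. The YTHDF2 log2 change was 0.08 (SE 0.05, 95% interval from -0.02 to 0.19), with a limma adjusted p = 0.253 and an exact permutation p = 0.1, the lowest this design allows.

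YTHDF3, the least abundant of the cytoplasmic trio, leaned the other way. It stood at 13.4, 13.3 and 13.8 FPKM in the control group, and at 11.5, 11.9 and 14.1 FPKM in knockdown libraries. Knockdown libraries 1 and 2 were below every control and knockdown library 3 above every control. The log2 change was -0.11 (SE 0.07, 95% interval from -0.26 to 0.04, limma adjusted p = 0.300). Without knockdown library 3 it was -0.19 and passed the threshold (limma adjusted p = 0.0242), so the call turned on that library. Without it the calls over all tested genes also rose, from 1819 to 2742 of 10823. The spread of YTHDF3 was 1.90% over the controls and 10.9% over the knockdown libraries.

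YTHDF1 was the largest and YTHDF3 the smallest part of the YTHDF family in every library. YTHDF1 made up 46.3% ± 0.446 of the summed FPKM of the trio in controls and 46.7% ± 1.19 in knockdown libraries (SD, n = 3; exact permutation p = 0.9). The share of YTHDF2 was 37.3% ± 0.199 and 38.6% ± 0.572, with every knockdown library above every control (exact permutation p = 0.1, adjusted p = 0.6 over the 6 shares). The share of YTHDF3 was 16.4% ± 0.422 and 14.8% ± 1.61 (exact permutation p = 0.2, adjusted p = 0.6). The difference in the YTHDF3 share was -1.61 percentage points, -0.823 without knockdown library 1 and -2.43 without knockdown library 3. The sum of the trio was 82.5 ± 1.57 FPKM in controls and 84.7 ± 3.14 FPKM in knockdown libraries. No share passed, and no exact permutation test of 3 against 3 libraries can.

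IGF2BP2 was the most abundant IGF2BP gene in every library. It stood at 20.1, 21.6 and 20.1 FPKM in the control group, and at 24.0, 23.2 and 20.8 FPKM in knockdown libraries. Knockdown libraries 1 and 2 were above every control, and knockdown library 3 lay below control library 2. The log2 change was 0.13 (SE 0.06, 95% interval from -0.0023 to 0.27, limma adjusted p = 0.157), with an exact permutation p = 0.2. Without knockdown library 3 the log2 change was 0.19 and passed the threshold (limma adjusted p = 0.0275). That fit called 2742 of 10823 genes, against 1819 in the main fit. After quantile normalization the IGF2BP2 log2 change was 0.07 (limma adjusted p = 0.414). IGF2BP2 and YTHDF3 thus share the feature that knockdown library 3 sits nearer the controls than knockdown libraries 1 and 2 do.

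IGF2BP3 stood at 3.10, 3.39 and 3.51 FPKM in the control group, and at 3.27, 3.62 and 3.46 FPKM in knockdown libraries, with groups that overlapped. Its log2 change was 0.04 (SE 0.06, 95% interval from -0.10 to 0.18, limma adjusted p = 0.702). IGF2BP1 was close to silent, with 16, 18 and 21 fragments in the controls and 18, 26 and 30 in the knockdown libraries. That is 0.0777 ± 0.0064 and 0.104 ± 0.024 FPKM, and the groups overlapped. Pooled over the libraries, the 74 fragments of the knockdown group against 55 of the controls give a rate ratio of 1.34 (exact 95% interval from 0.932 to 1.93, counting error only), so a difference was not detected. In the fit with no filter the IGF2BP1 log2 change was 0.035 (limma adjusted p = 0.334).

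Within the IGF2BP family, IGF2BP2 made up 85.8% ± 0.843 of the summed FPKM in controls and 86.4% ± 1.26 in knockdown libraries (SD, n = 3; exact permutation p = 0.6, adjusted p = 0.72). IGF2BP3 made up 13.9% ± 0.815 and 13.2% ± 1.16 (exact permutation p = 0.5, adjusted p = 0.72), and IGF2BP1 0.324% ± 0.028 and 0.400% ± 0.108 (exact permutation p = 0.4, adjusted p = 0.72). IGF2BP2 exceeded IGF2BP3 by 5.72-fold to 7.36-fold across the 6 libraries. Both ends of that range were reached in single libraries, the lowest in control library 3 and the highest in knockdown library 1.

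**Figure D4:**
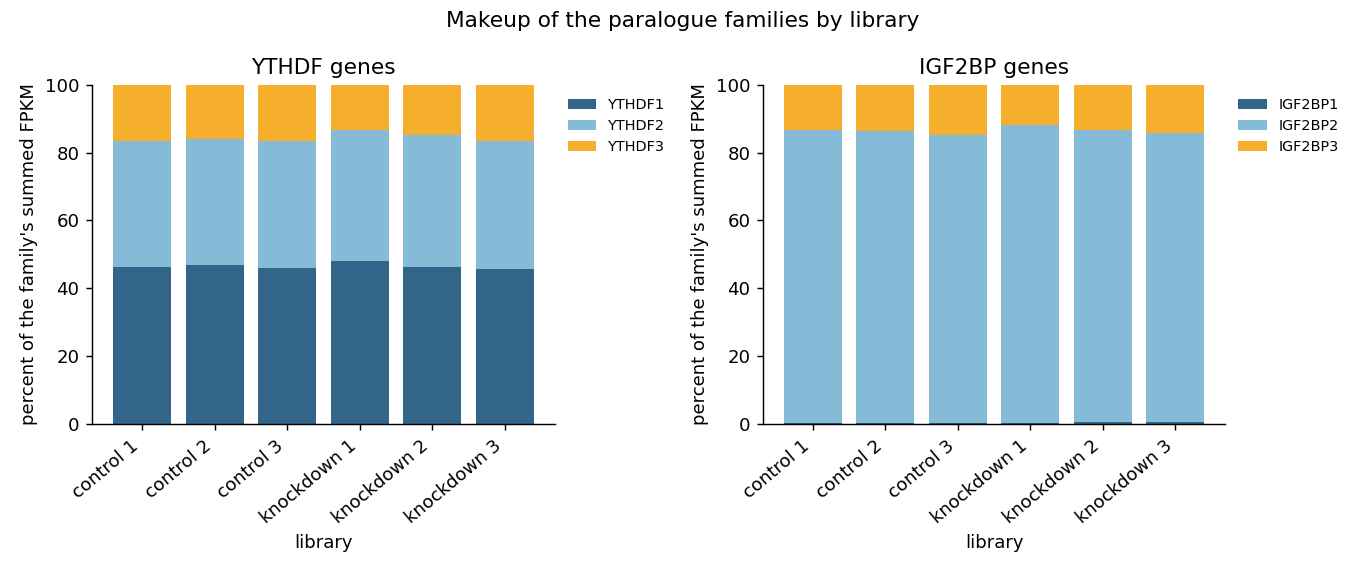
Share of each paralogue in the summed FPKM of the YTHDF family (left) and the IGF2BP family (right), as percent, 1 bar per library. YTHDF1 takes 45.7% to 48.0% and IGF2BP2 84.8% to 87.8% in every library, and IGF2BP1 is barely visible at the foot of the right panel.

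With 8 readers and 6 libraries some extreme values must share a library, so each count is set beside the share of all tested genes. YTHDF1, YTHDF2 and IGF2BP2 were highest in knockdown library 1, and YTHDC2 and YTHDF3 were lowest there. Among all tested genes, 26.3% were highest and 20.9% lowest in that library. YTHDC1, YTHDF3 and IGF2BP1 were highest in knockdown library 3, where 14.8% of all tested genes were highest. In knockdown library 1 the FPKM over all mRNA rows summed to 336887, against 275359 to 285701 in the controls and 308101 and 287148 in knockdown libraries 2 and 3. Control library 1 was the lowest for 5 of the 8 readers, against 11.6% of all tested genes. The part of these library differences in the readers' values was not tested.

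Rows of the lncRNA table tied to the readers were looked at with limma on log2(FPKM + 0.1), adjusted over that table. There 0 of 3092 tested lncRNA rows passed (0.0%), while 284 rows (9.18%) had an unadjusted p under 0.05 and voom on fragments called 56 of 3055 (1.83%). YTHDF3-AS1, named as antisense to YTHDF3, stood at 1.47, 1.58 and 1.07 FPKM in the control group, and at 2.66, 2.46 and 1.89 FPKM in knockdown libraries, from 21 to 49 fragments. The groups did not overlap, which held for 15.6% of the tested lncRNA rows, and knockdown library 1 was highest for YTHDF3-AS1 and lowest for YTHDF3. Its log2 change was 0.73 (SE 0.21, limma adjusted p = 0.318; voom adjusted p = 0.203). No source used here says whether counting used strand, so it is not known whether reads of this RNA and of YTHDF3 were separated. IGF2BP2-AS1 had 2 to 11 fragments per library, with groups that overlapped, and was below the filter.

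MALAT1 and NEAT1, nuclear lncRNAs of which MALAT1 is a known m6A carrier bound by YTHDC1, were called lower in knockdown libraries by voom only. Of all lncRNA rows tested with voom, 1.83% were called. Both are known as abundant, but averaged only 3.47 and 2.20 FPKM over the 6 libraries. How well the preparation and counting captured them was not tested. MALAT1 stood at 3.76, 4.31 and 4.24 FPKM in the control group, and at 2.86, 2.27 and 3.36 FPKM in knockdown libraries (log2 change -0.53, limma adjusted p = 0.357; voom adjusted p = 1.88e-09). NEAT1 stood at 2.50, 2.61 and 2.48 FPKM in the control group, and at 1.87, 1.87 and 1.90 FPKM in knockdown libraries. Its group SDs were 0.068 and 0.021 FPKM. The NEAT1 log2 change was -0.41 (SE 0.13, limma adjusted p = 0.399, voom adjusted p = 2.47e-10). In both the groups did not overlap, which held for 15.6% of the tested lncRNA rows. The exact permutation p was 0.1 for each, the lowest that 3 against 3 libraries allow. The values of MALAT1 and NEAT1 rest on 500 or more fragments per library. In both fits the variance of a row is drawn partly from other rows, so these p-values do not rest on its own spread alone.

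Among 13 tested writer and eraser genes, 2 rose and none fell (median log2 change 0.029), where 16.8% of all tested genes were called. After quantile normalization 0 of them passed, and voom called 1. RBM15B, an adaptor of the writer complex, rose from 25.5 ± 0.373 to 29.1 ± 1.47 FPKM (log2 0.18, limma adjusted p = 0.0346). METTL5, a ribosomal RNA methyltransferase, rose from 11.4 ± 0.082 to 12.8 ± 0.161 FPKM (log2 0.16, limma adjusted p = 0.0421). Each lost its call in 7 of 15 alternatives, quantile normalization among them (adjusted p = 0.131 for RBM15B and 0.0943 for METTL5). The METTL3 level was 4.45 ± 0.236 and 4.20 ± 0.438 FPKM (log2 -0.07, limma adjusted p = 0.521), above that of YTHDC1 and below that of the YTHDF genes.

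Other proteins reported to bind m6A RNA, or RNA whose fold the mark opens, were led in level by HNRNPA2B1, at 109.5 ± 1.09 FPKM in controls and 114.5 ± 7.19 FPKM in knockdown libraries. In this group 1 of 12 tested genes rose and none fell, where 16.8% of all tested genes were called. The median log2 change of the group was 0.055, or -0.016 after quantile normalization. FXR2, a paralogue of the fragile X protein, rose from 24.4 ± 1.90 to 29.1 ± 2.62 FPKM (log2 0.24, limma adjusted p = 0.0467), a call lost with median scaling (adjusted p = 0.052), with quantile normalization (0.113) and in 4 further alternatives. In the list of YTHDC1 partners in splicing and export, which includes SRSF3, 0 of 7 passed in limma. By unadjusted p under 0.05 there was 1, against 33.0% of all tested genes, and voom called 1 lower. Both times it was SRSF10, a splicing factor known to compete with SRSF3 for YTHDC1, at 9.32 ± 0.297 and 8.20 ± 0.386 FPKM (log2 -0.17, limma adjusted p = 0.0625).

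A list of mRNA decay effectors was set beside the YTHDF genes, and recruitment by YTHDF proteins is not claimed for each member. Of its 27 tested genes 2 rose and 3 fell (median log2 change -0.019), against 10.9% higher and 5.91% lower among all tested genes. After quantile normalization 1 gene of the list was higher and 4 were lower. PAN2, the catalytic subunit of a poly(A) nuclease, fell from 3.57 ± 0.204 to 2.65 ± 0.095 FPKM (log2 -0.32, limma adjusted p = 0.0076), a call kept in 14 of 14 alternatives. The decapping enzyme DCP2 fell from 5.29 ± 0.274 to 4.13 ± 0.448 FPKM (log2 -0.30, limma adjusted p = 0.0216) and lost its call with no filter (adjusted p = 0.0737), when control library 2 or 3 was left out (0.071 and 0.0937), or when knockdown library 2 was (0.0637). TOB1, which links the CCR4-NOT complex to its targets, fell from 23.5 ± 0.980 to 19.8 ± 0.915 FPKM (log2 -0.23, limma adjusted p = 0.0177) and lost its call when control library 1 or 3 was left out (0.0699 and 0.0703), or when knockdown library 2 was (0.0668). UPF1, the helicase of nonsense-mediated decay, rose from 38.9 ± 2.0 to 47.0 ± 1.91 FPKM (log2 0.27, limma adjusted p = 0.0109), a call lost without control library 3 (0.0576). CNOT1, the scaffold that YTHDF2 binds, stood at 27.8 ± 0.641 and 27.2 ± 1.54 FPKM (log2 -0.03, limma adjusted p = 0.707). RPP25, of RNase P and MRP, also rose (log2 0.25, limma adjusted p = 0.0346), a call lost in 7 of 15 alternatives.

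Of 3 tested partners of YTHDC2, UPF1 alone passed, where 16.8% of all tested genes were called. The median log2 change of the 3 partners was -0.055 and the mean 0.011. The meiotic partners RBM46 and MEIOC were at 0 and at 0.052 ± 0.014 FPKM in controls, below the filter.

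Among 8 tested cofactors of IGF2BP proteins, 1 rose and none fell (median log2 change 0.12, or 0.024 after quantile normalization). Of all tested genes 10.9% were called higher and 5.91% lower, with a median log2 change of 0.021. PABPC4, a poly(A)-binding protein, rose from 61.5 ± 2.08 to 85.9 ± 3.35 FPKM (log2 0.48, limma adjusted p = 5.1e-04), a call kept in 15 of 15 alternatives. Of 15 tested mRNAs reported as IGF2BP targets, 1 rose and 1 fell (median log2 change 0.13), where 16.8% of all tested genes were called. After quantile normalization the median was 0.058, with 3 higher and 1 lower. Voom called 4 of these 15 targets higher and 2 lower, where it called 18.9% of all genes it tested. At an unadjusted limma p under 0.05 there were 10 of the 15, against 33.0% of all tested genes. MYC, the best known of them, rose from 42.2 ± 0.882 to 53.3 ± 1.12 FPKM (log2 0.33, limma adjusted p = 0.0020). The proliferation gene MKI67 fell from 58.5 ± 0.612 to 45.5 ± 3.29 FPKM (log2 -0.36, limma adjusted p = 0.0035). Both calls were kept in 15 of 15 alternatives. The cofactor MATR3 was listed at 0.139 ± 0.014 FPKM in controls, and the m6A binder PRRC2A at 0, although most cells are known to express both. The target LIN28B and the family's namesake target IGF2 were at or below 0.025 FPKM in both groups.

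Of 14 tested mRNAs reported as YTHDF targets, 1 rose and none fell (median log2 change 0.025). TFRC, the transferrin receptor gene, rose from 50.6 ± 1.17 to 57.1 ± 2.76 FPKM (log2 0.17, limma adjusted p = 0.0469), a call lost in 8 of 15 alternatives, quantile normalization (adjusted p = 0.399) among them. SON, a known YTHDF2 target, stood at 36.9 ± 0.372 and 38.0 ± 1.58 FPKM (log2 0.04, limma adjusted p = 0.594). Counted once each, 95 genes of these lists were tested and 8 were higher and 4 lower, 12.6% in all, against 16.8% of all tested genes.

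**Figure D5:**
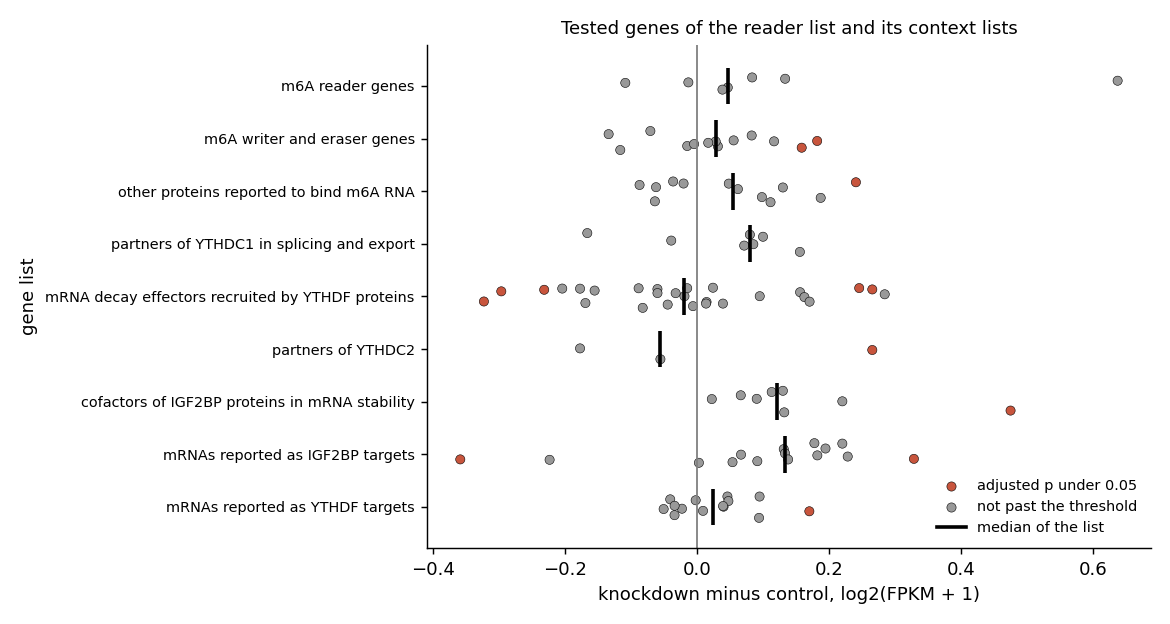
Change between knockdown and control libraries on the log2(FPKM + 1) scale for every tested gene of the reader list and of the lists around it, 1 point per gene, red where the limma adjusted p is under 0.05, with a black bar at each list's median. The readers hold no red point, YTHDC1 at 0.64 is the rightmost point, and PABPC4 at 0.48 is the rightmost red one.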

How the data were processed

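RNA was sequenced from 6 libraries, 3 per group. The authors deposited FPKM values per gene symbol in an mRNA and an lncRNA table, per the file headers. The tools listed, per the submitters' processing notes, are edgeR, Cuffdiff, StringTie and HISAT2, without roles or versions. The labels' protocols describe a polyA-selected and an rRNA-depleted stranded preparation. The preparation behind each table, genome build, annotation, assignment of shared reads and use of strand were not given in the sources used here. Coordinates are therefore left out.

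Fragment numbers were recovered from the steps of the FPKM values, with 1 total per library and 1 length per gene. They were whole within 0.003 fragments, or 6e-08 of the number where larger, for 19406 of 19434 rows above 0 in at least 3 libraries (99.9%). The 28 other rows hold no reader. On simulated data 292 of 299 rows regained their true fragment numbers, and 5 of 299 rows with 1 group shifted were also placed.

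The mRNA table was fitted with limma 3.58.1 in R 4.3.3 (trend, two-sided, adjusted p under 0.05) on log2(FPKM + 1), keeping genes whose mean reached 0.5 FPKM. For lncRNA rows the pseudocount and the lowest mean were both 0.1. The fit was also run on simulated data with the same added spread for every gene in both groups. That differs from the data, so it does not show how the fit handles a gene such as YTHDC1. Single values used exact two-sided permutation tests (scipy 1.17.1). Genes named are the readers, SRSF3, up to 4 called members per list or else the one with the smallest p, and the 3 genes most like the reader with the smallest p. The lncRNA rows are those whose symbol begins with a reader's, plus MALAT1 and NEAT1. Also named, after their values were seen, were METTL3, HNRNPA2B1, CNOT1, LIN28B, IGF2, MATR3, PRRC2A, RBM46, MEIOC, SON, RPP25 and the markers. Members and lists were chosen with earlier results of these data known. Protein sequences were not used here, nor was H19 analysed here.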

Additional observations from a re-analysis of the deposited data

How the results depend on the processing

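The reader count of 0 held with a pseudocount of 0.1, no filter, a filter at 5 FPKM (4 readers tested), median scaling, quantile normalization, robust empirical Bayes, without the rows off the step grid (added after seeing the data) and with the replicate block. It was 1 with voom on fragments and ran from 0 to 2 with 1 library left out: YTHDC1 without control library 2, and YTHDF3 and IGF2BP2 without knockdown library 3. Over all mRNA genes the count was 960 with no filter and from 647 to 2742 with 1 library left out, against 1819. It was 1082, 647 and 651 without control libraries 1 to 3, 844 without knockdown library 2 and 2742 without knockdown library 3. Quantile normalization gave 50.3% higher calls, against 64.8%. The cause of these shifts was not tested.

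Signs turned in readers near 0. With quantile normalization the log2 change was 0.0063 for YTHDC2 and -0.033 for YTHDF1. With 1 library left out it ran from -0.050 to 0.037 for YTHDC2 and from -0.00061 to 0.069 for IGF2BP3. The YTHDF1 share difference ran from -0.326 to 0.824 percentage points that of IGF2BP2 from -0.0468 to 1.19, that of IGF2BP3 from -1.22 to -0.0887 and that of IGF2BP1 from 0.0291 to 0.135. In the IGF2BP2 and IGF2BP3 shares the ends were reached without knockdown libraries 1 and 3.

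Same-numbered control and knockdown libraries correlated at 0.078, 0.039 and 0.279 in their deviations over 10823 genes, and differently numbered ones at -0.212 to 0.153. These values do not settle whether the libraries are paired. The labels name no pairing, so the main fit did not use the numbers. The replicate block called 2323 genes, against 1819 without it, and moved no reader across the threshold (YTHDC1 adjusted p = 0.0668, limma).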
